A study of Danio rerio with 12 samples.

Results

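The genes *upf3a*, *hnrnpd* and *spen*, which encode proteins of RNA decay, RNA processing and transcriptional repression, were followed across the brains of zebrafish with and without a mutant allele of *psen2*. They were taken by name from the genes that the study ranked for an effect of the mutant allele, and each matched 1 identifier. They are thus 3 of the 32057 genes in the count table, and all 3 were among the 16021 genes tested. Because the contrast between mutant and wild-type fish chose them, their differences in that contrast are given below as a description, with no test.

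The data are RNA-seq counts from whole brains of 12 female zebrafish aged 6 months, 4 for each genotype of *psen2*. Wild-type fish (WT) carried no mutant allele, heterozygous fish (Het) carried 1 copy of *psen2* S4Ter, and homozygous fish (Hom) carried it on both chromosomes. The allele is a small deletion near the start of the coding sequence that brings an early stop codon. All fish came from 1 family and shared a tank, and the allele descends from a single founder line of the Tübingen strain. Each library is 1 fish, and fish are named here by genotype and number. The label text on extraction speaks of pooled larvae, whereas the tissue label is whole brain.

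Nonsense-mediated decay (NMD) removes mRNAs in which translation stops early. The UPF and SMG proteins find and degrade such mRNAs, often with the help of the exon junction complex that splicing leaves on an mRNA. UPF3A and UPF3B are paralogs that link the UPF proteins to that complex. In zebrafish, Upf3a has also been described, together with COMPASS, the complex that methylates histone H3 at lysine 4, in the raised transcription of related genes when a mutant mRNA holds an early stop codon. HNRNPD, also called AUF1, binds AU-rich elements of mRNAs and affects how long they last. SPEN, a very large RNA-binding protein, recruits corepressors such as HDAC3, represses Notch target genes through RBPJ, and is known in mammals for its part in silencing by *Xist*.

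In the gene models of GRCz11 that were counted, *upf3a* (ENSDARG00000069297) lies on the reverse strand of chromosome 9 from 34902971 to 34915394, and its exons cover 2435 bp in 10 blocks. *hnrnpd* (ENSDARG00000059246) lies on the reverse strand of chromosome 10 from 5000623 to 5020378, with 2723 bp in 10 blocks. *spen* (ENSDARG00000074245) lies on the reverse strand of chromosome 23 from 24436273 to 24483440, with 14770 bp in 15 blocks. The longest block of *spen* covers 7603 bp, and the gene is longer in exons than 99.6% of the tested genes.

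Libraries held 11878943 to 17026801 counts. Levels are given as CPM, the counts of a gene per 1e+06 counts of the tested genes, after TMM scaling, which makes libraries comparable when a few genes take many counts. Mitochondrial rRNA took 17.9% to 26.4% of all counts among WT fish, 31.3% to 35.2% among Het and 31.4% to 35.5% among Hom, so WT and mutant fish did not overlap. The Wilson 95% interval of each share was at most 0.0474 percentage points wide, which covers counting error only. The 2 mitochondrial rRNA genes were left out of the tests. Het 84 stood apart in its TMM factor, 0.841 against 0.9815 to 1.04 in the other 11 libraries. The summed level of 6 neuronal markers was 5529 to 6059 CPM in WT and 5104 to 5544 CPM over both mutant genotypes. Markers of blood, muscle and eye were low, with sums of up to 124, 30.1 and 158 CPM, and none passed the test between mutant and WT fish.

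*upf3a* was the gene of the 3 with the widest gap between genotypes. Its level in WT was 432 CPM in fish 79, 592 in fish 86, 292 in fish 88 and 336 in fish 95. In Het it was 190 CPM in fish 80, 175 in fish 81, 139 in fish 84 and 174 in fish 89. In Hom it was 161 CPM in fish 78, 215 in fish 82, 194 in fish 83 and 187 in fish 85. All 8 mutant fish lay below all 4 WT fish, and the highest mutant, Hom 82, was at 0.737 of the lowest WT, fish 88. Het and Hom overlapped. These levels rest on 1262 to 7638 counts per fish.

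The mean level of *upf3a* was 413 ± 133 CPM in WT, 169 ± 21.6 in Het and 189 ± 22.4 in Hom (SD, n = 4 each). The mean of the mutant fish was 43.4% of the WT mean. On the log2 scale of the edgeR model the difference (logFC) was -1.21 for mutant minus WT, the mean of both mutant genotypes, with a standard error (SE) of 0.158. It was -1.29 (SE 0.191) for Het and -1.13 (SE 0.191) for Hom, and both use the same WT fish. WT fish 86 was the highest and pulled the difference most: without it, mutant minus WT was -0.98, and without WT fish 88 it was -1.34.

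*hnrnpd* was lower in the mutants by less, with less spread. Its level in WT was 290 CPM in fish 79, 298 in fish 86, 221 in fish 88 and 251 in fish 95. In Het it was 161 CPM in fish 80, 172 in fish 81, 149 in fish 84 and 168 in fish 89. In Hom it was 172 CPM in fish 78, 204 in fish 82, 175 in fish 83 and 178 in fish 85. No mutant fish reached the lowest WT fish, although Hom 82 came to 0.926 of it. The lowest Hom fish and the highest Het fish differed by less than 1 CPM.

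The mean level of *hnrnpd* was 265 ± 35.9 CPM in WT, 163 ± 9.90 in Het and 182 ± 14.9 in Hom (SD, n = 4 each), and the mutant mean was 65.1% of the WT mean. The logFC was -0.62 (SE 0.0911) for mutant minus WT, -0.70 (SE 0.108) for Het and -0.54 (SE 0.108) for Hom. Leaving out any 1 fish kept mutant minus WT between -0.70 and -0.56.

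*spen* had the smallest spread among WT fish, a coefficient of variation of 9.52% against 13.5% for *hnrnpd* and 32.2% for *upf3a*. Its level in WT was 675 CPM in fish 79, 690 in fish 86, 569 in fish 88 and 591 in fish 95. In Het it was 396 CPM in fish 80, 376 in fish 81, 370 in fish 84 and 440 in fish 89. In Hom it was 456 CPM in fish 78, 420 in fish 82, 400 in fish 83 and 392 in fish 85. Het and Hom overlapped, and the highest mutant, Hom 78, was at 0.801 of the lowest WT.

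The mean level of *spen* was 631 ± 60.1 CPM in WT, 396 ± 31.6 in Het and 417 ± 28.5 in Hom (SD, n = 4 each), and the mutant mean was 64.4% of the WT mean. The logFC was -0.64 (SE 0.0847) for mutant minus WT, -0.67 (SE 0.100) for Het and -0.60 (SE 0.100) for Hom. Leaving out any 1 fish kept mutant minus WT between -0.68 and -0.59.

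**Figure D1:**
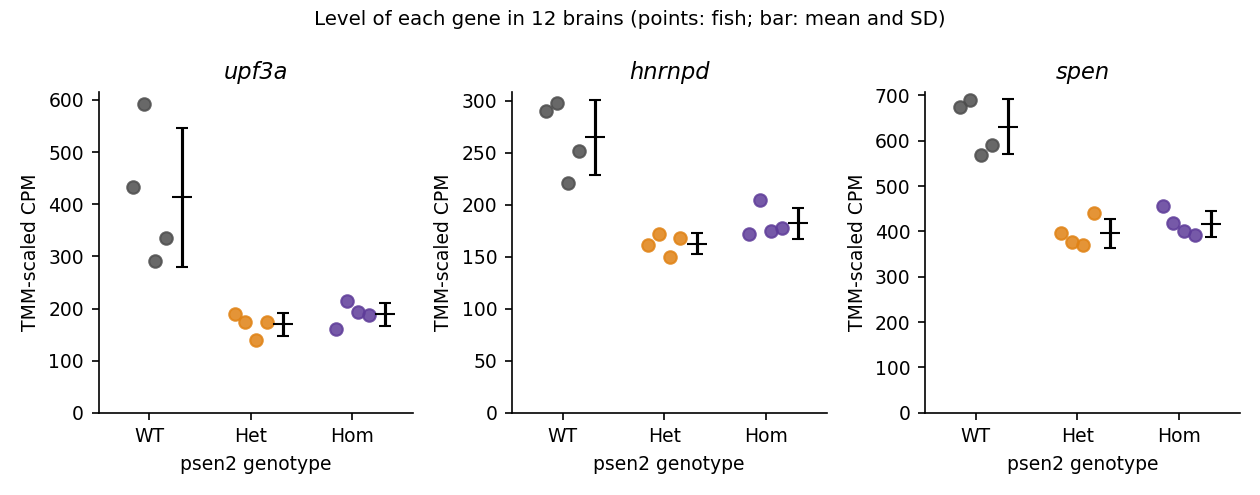
TMM-scaled CPM of *upf3a*, *hnrnpd* and *spen* in each fish (points) by *psen2* genotype, with the mean and SD of 4 fish as a bar beside them; each axis starts at 0. For each gene the 8 mutant fish lie below the 4 WT fish, and for *upf3a* the WT fish spread from 292 to 592 CPM.

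In whole-brain RNA, fewer cells that express a gene and less of its RNA per cell cannot be told apart. Per kilobase of exon, so that genes can be compared in level, the WT mean was 170 CPM for *upf3a*, 97.3 for *hnrnpd* and 42.7 for *spen*, which places them at the 98.98th, 97.6th and 92.4th percentile of the tested genes. In the mutants *upf3a* stayed the highest of the 3 per kilobase, at 69.6 CPM in Het and 77.7 in Hom, but came close to *hnrnpd*, at 59.7 and 67.0. The ratio of the CPM of *upf3a* to that of *hnrnpd* was 1.32 to 1.99 in WT and 0.931 to 1.18 over all mutants, whereas the ratio of *hnrnpd* to *spen* was 0.388 to 0.431 in WT and 0.378 to 0.487 in the mutants.

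How common such values were among all genes bears on how they read. All 8 mutant fish lay below all 4 WT fish for 8.76% of the tested genes. The study's criteria for differential expression, either a Bonferroni p below 0.01 or a false discovery rate (FDR) below 0.01 together with a logFC above 1 or below -1, were met with a lower level in the mutants by 1% of the genes. They were met by 1.08% with a lower level in Het than in WT and by 0.493% with a lower level in Hom. The shares that met the criteria come from the quasi-likelihood test of edgeR used here. The study itself used the likelihood-ratio test of edgeR. On these counts that test called 966 of the 16021 tested genes for mutant minus WT in either direction. Since the contrast with WT chose the 3 genes, whether they met the criteria is not given as a result.

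The order of the 4 WT fish was the same for *upf3a*, *hnrnpd* and *spen*: fish 86 was highest, then 79, then 95, then 88. The mitochondrial rRNA share of the same fish ran the other way, from 17.9% in fish 86 through 18.9% in fish 79 and 23.9% in fish 95 to 26.4% in fish 88. Of all tested genes 12.0% had the order of the 3 genes and 9.73% had its reverse, among 24 possible orders. In the mutants the rRNA shares lay in a narrower and higher range. There the correlation across 8 fish with the rRNA share was r = 0.17 for *upf3a* (rho = 0.14), r = -0.022 for *hnrnpd* (rho = 0.071) and r = -0.069 for *spen* (rho = 0.29). None passed an exact permutation test (raw p of r 0.687, 0.959 and 0.871, p of rho 0.752, 0.882 and 0.501, two-sided), and each r had p = 0.959 and each rho p = 0.882 after Benjamini-Hochberg adjustment over 6 relations. Without Het 81 and Hom 83, the 2 fish farthest from the median rRNA share, r was 0.050 for *upf3a*, -0.17 for *hnrnpd* and 0.62 for *spen*. The libraries were depleted of rRNA with sequences of human, rat and mouse, and the part of the rRNA share in the differences between genotypes was not tested.

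**Figure D2:**
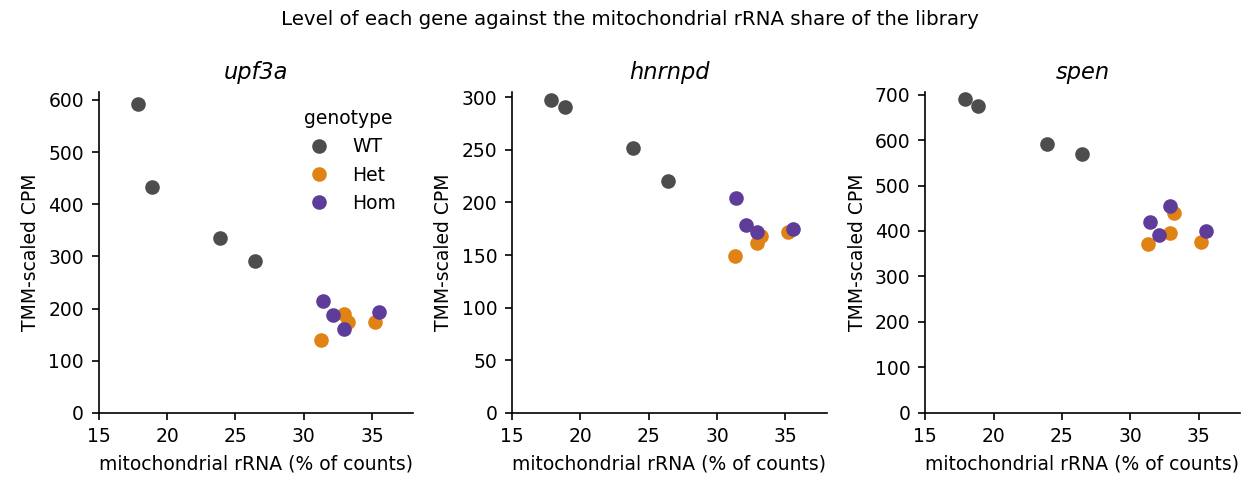
TMM-scaled CPM of each gene against the mitochondrial rRNA share of all counts in the same library, 1 point per fish. The WT fish run from 17.9% to 26.4% with falling levels in the order 86, 79, 95, 88, and the 8 mutant fish form a separate cluster at 31.3% to 35.5%.

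Within the mutants the 3 genes could be compared with each other free of the WT contrast. *upf3a* and *hnrnpd* had r = 0.801 over 8 fish (exact permutation p = 0.0256, 0.154 after adjustment over 6 relations, two-sided) and rho = 0.643 (p = 0.0962, adjusted 0.577). The relation rested on its extremes, since r was -0.051 once Het 84, the lowest in both genes, and Hom 82, the highest in both, were left out. For *upf3a* and *spen* r was 0.170 and rho 0.143 (exact permutation p = 0.693 and 0.752, adjusted 0.959 and 0.882), with r = -0.674 without the same fish. For *hnrnpd* and *spen* r was 0.378 and rho 0.357 (exact permutation p = 0.363 and 0.389, adjusted 0.959 and 0.882), with r = -0.083 without them. Het 84 was also the lowest of the 12 fish for *spen*.

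The contrast of Hom with Het asks whether the second mutant copy went with a further change, and it could be tested with edgeR because it did not choose the genes by name. One limit is that the study's effect of the mutant allele may have been estimated from Het, in which case the Het values had a part in the choice. All 3 genes were slightly higher in Hom than in Het, and none passed the test. The logFC was 0.16 for *upf3a* (95% interval -0.25 to 0.57, FDR = 0.989), 0.17 for *hnrnpd* (-0.067 to 0.40, FDR = 0.989) and 0.076 for *spen* (-0.14 to 0.29, FDR = 0.989). The sign was positive in each fit without 1 fish, from 0.072 (without Het 84) to 0.23 for *upf3a*, 0.11 to 0.19 for *hnrnpd* and 0.030 (without Hom 78) to 0.12 for *spen*. With the length correction of log2 CPM it was 0.00084 for *spen*.

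For *hnrnpd* all 4 Hom fish lay above all 4 Het fish, which gives the smallest p the exact permutation test of 4 against 4 can reach, 0.0286 (two-sided). That pattern was found in 1.46% of the tested genes, and the margin was 172.3 against 171.9 CPM. The exact test gave p = 0.286 for *upf3a* and p = 0.314 for *spen*. Across all genes no gene passed an FDR of 0.05 for Hom minus Het in edgeR, a share of 0%, with 607 genes at an unadjusted p under 0.05, while DESeq2 and the likelihood-ratio test of edgeR each called 9.

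The nearest relatives of the 3 genes behaved in different ways. Apart from the *SPEN* gene on chromosome 22, they were not chosen by the contrast but with earlier results of these data known. That *SPEN* gene was named once its values were known. Symbols in capitals are those of the table of names used for the identifiers, in which zebrafish copies can share a symbol. *upf3b* (chromosome 14), the paralog of *upf3a*, was lower in the mutants. Its level was 63.7, 85.5, 39.5 and 62.3 CPM in WT fish 79, 86, 88 and 95, 32.2 to 37.9 in Het and 37.5 to 47.6 in Hom. WT 88 lay inside the Hom range, so the groups overlapped through this fish. The logFC was -0.70 (SE 0.151, edgeR FDR = 0.00426). *upf3b* had the same order of WT fish as *upf3a*. The CPM of *upf3a* was 5.39 to 7.38 times that of *upf3b* among WT fish, 4.32 to 5.03 among Het and 4.07 to 5.16 among Hom.

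*HNRNPDL*, the closest relative of *hnrnpd*, overlaps it on the same strand of chromosome 10, from 5017216 to 5024520, and the models share 550 bp of exon, 20.2% of those of *hnrnpd*. Fragments that fit both genes cannot be assigned to 1 of them, so the levels of both are uncertain to that extent. *HNRNPDL* was at 160 to 190 CPM among WT fish, 169 to 176 among Het and 142 to 176 among Hom, and the ranges overlapped. Its logFC was -0.072 (SE 0.0773, edgeR FDR = 0.498), beside -0.62 for *hnrnpd*. The related *HNRNPAB* genes did not pass the test either, with -0.18 for the copy on chromosome 14 (SE 0.133, FDR = 0.313) and 0.075 for that on chromosome 21 (SE 0.125, FDR = 0.674).

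A second gene named *SPEN* in the table (ENSDARG00000074332, chromosome 22, 9420 bp of exon) fell along with *spen*. Its level was 351, 347, 238 and 263 CPM in WT fish 79, 86, 88 and 95, 182 to 214 in Het and 211 to 230 in Hom, and the WT and mutant fish did not overlap. The logFC was -0.52 (SE 0.105, edgeR FDR = 0.00306). *RBM15* and *RBM15B*, smaller proteins of the SPEN family, did not pass, at -0.23 (SE 0.0920, FDR = 0.0665) and -0.15 (SE 0.137, FDR = 0.436). None of these related genes passed for Hom minus Het (FDR 0.989 to 0.991).

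**Figure D3:**
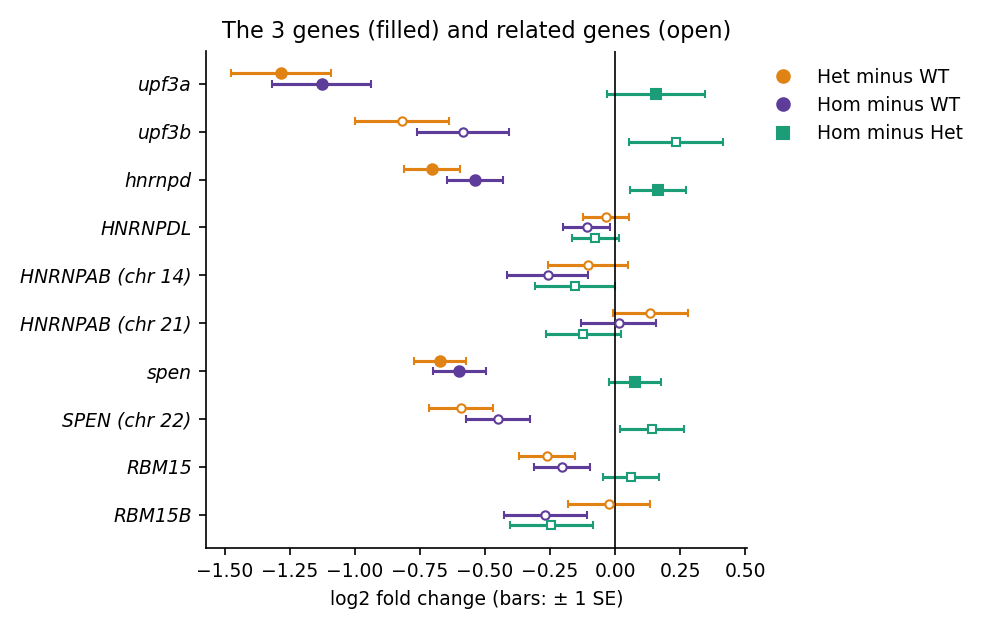
Log2 fold changes of the 3 genes (filled) and of related genes (open) for Het minus WT, Hom minus WT and Hom minus Het; points are estimates and bars ± 1 SE. *upf3b* and the *SPEN* gene on chromosome 22 lie below 0 against WT in both mutant genotypes, at -0.70 and -0.52 for mutant minus WT, whereas *HNRNPDL* lies at -0.072.

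The gene that carries the mutation was measured in the same libraries. *PSEN2* was at 20.5 CPM in WT, 19.98 in Het and 19.1 in Hom, with a logFC of -0.072 (SE 0.105, edgeR FDR = 0.629), from counts that add both alleles.

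The pathways around the 3 genes were described through 7 lists with the 3 genes taken out. Over all tested genes, 34.1% had an FDR under 0.05 for mutant minus WT, 17.4% lower and 16.8% higher, and the median logFC was 0.020. The markers of cell types moved too: 3 of 6 radial glia markers rose and none fell, and their summed level was 2520 to 3330 CPM among WT fish, 3291 to 4353 among Het and 3114 to 3554 among Hom. Of 6 neuronal markers 3 fell and none rose. Of 7 oligodendrocyte markers 3 rose and 1 fell, with sums of 7373 to 12231 CPM among WT fish, 10649 to 11791 among Het and 9355 to 15379 among Hom. Of 3 microglia markers *mpeg1.1* fell (logFC -0.37, edgeR FDR = 0.0399), while *apoeb* and *csf1ra*, each at 0.33, did not pass (FDR = 0.0803 and 0.0824). The part of these shifts in the lists below was not tested.

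Of 20 tested genes of NMD and the exon junction complex, 7 fell and none rose (median logFC -0.079, 35.0% lower). Among all tested genes 17.4% were lower and 16.8% higher. The listed *upf2*, *magoh* and *gspt1l* were not located by symbol. The decrease was largest for *pnrc1*, whose human product is a nuclear receptor coactivator, with 42.3 CPM in WT, 20.8 in Het and 24.2 in Hom (logFC -0.91, SE 0.125, edgeR FDR = 0.000650), and for *upf3b*. *SMG6*, the endonuclease of NMD, fell from a WT mean of 80.2 CPM to means of 52.5 (Het) and 53.4 (Hom) (logFC -0.60, SE 0.0782, FDR = 0.000547). *SMG5*, an adaptor that binds phosphorylated UPF1, fell by 0.33 on the log2 scale, and *NBAS* fell by 0.39. Of the release factor of translation, the *gspt1* gene on chromosome 12, at 56.2 CPM in WT, fell by 0.29. The *GSPT1* gene on chromosome 3, at 114 CPM in WT, did not pass (logFC 0.045, FDR = 0.668). The core helicase *UPF1* had a logFC of -0.056 (FDR = 0.632) and its kinase *SMG1* one of 0.014 (FDR = 0.904). *PNRC2*, also in the list, was at 1033 CPM in WT, 1218 in Het and 1304 in Hom. It did not pass (logFC 0.29, FDR = 0.108). The count of lower genes was 6 or 7 in each fit without 1 fish, and 2 genes were higher without WT 88. In these fits the share of all tested genes that were lower was 11.3% (without WT 86) to 19.0% (without Het 84). The share that were higher was 18.2% without WT 88.

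Of 10 COMPASS genes, 6 fell and 1 rose (median logFC -0.25), beside 17.4% lower and 16.8% higher among all tested genes. The largest falls were in genes of catalytic subunits: *setd1a* fell from a WT mean of 242 CPM to means of 140 (Het) and 142 (Hom) (logFC -0.78, SE 0.141, edgeR FDR = 0.00189), *SETD1B* by 0.54 and *kmt2a* by 0.53 on the log2 scale. A further catalytic subunit gene, *kmt2bb*, fell by 0.23, the least of the 6, and the non-catalytic *RBBP5* and *ASH2L* fell by 0.33 and 0.27. These catalytic subunit genes are also the longest of the list, with 8180 to 15341 bp of exon. The other COMPASS genes have 630 to 3132 bp. Longer genes were more often lower, as given below, and the part of length in the COMPASS falls was not tested. *WDR5*, a core scaffold subunit, rose by 0.42 (SE 0.107, FDR = 0.00959). Without WT 79 the count of lower genes was 3 of 10, and the share of all tested genes that were lower was 11.8%.

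The hnRNP family of RNA-binding proteins showed both directions, with 3 of 30 genes lower and 5 higher (median logFC -0.013). That is 10.0% lower and 16.7% higher, beside 17.4% and 16.8% of all tested genes. *PTBP3* fell by 0.78 (SE 0.156, edgeR FDR = 0.00303) and *hnrnpul1l* by 0.53, while the *PTBP2* gene on chromosome 2, a splicing regulator of neurons, rose by 0.50 (SE 0.133, FDR = 0.0121). With the logFC corrected for exonic length, 5 were lower and 3 higher. The shares over all tested genes moved the same way with that correction, to 18.9% lower and 14.8% higher. Without Het 84 the count of lower genes was 5, beside 19.0% of all tested genes. Without WT 86 or WT 95 the count of higher genes was 2, beside 10.0% and 15.2% of all tested genes.

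Among the other genes that bind AU-rich elements, the class to which *hnrnpd* belongs, 3 of 9 rose and 1 fell (median logFC 0.16). That is 33.3% higher and 11.1% lower, beside 16.8% and 17.4% of all tested genes. *ELAVL1*, which encodes an mRNA-stabilising protein also known as HuR, rose from a WT mean of 44.4 CPM to means of 66.7 (Het) and 60.7 (Hom) (logFC 0.52, SE 0.103, edgeR FDR = 0.00286), and *tia1l* rose by 0.32. Against WT, *tia1l* had a logFC of 0.43 in Het (FDR = 0.00780) and 0.21 in Hom (FDR = 0.146). The *ZFP36L1* gene on chromosome 17, whose product promotes mRNA decay, fell by 0.36 (FDR = 0.0301). Without WT 79 or WT 86 the counts were 1 higher and 0 lower. The shares of all tested genes in these fits were 10.4% and 10.0% higher, and 11.8% and 11.3% lower.

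Of 41 genes of deadenylation, decapping and the exosome, 10 rose and 7 fell (median logFC -0.062). That is 24.4% higher and 17.1% lower, beside 16.8% and 17.4% of all tested genes. The subunits of the CCR4-NOT deadenylase that passed were mostly lower, with *cnot4a* falling from a WT mean of 74.9 CPM to means of 34.4 (Het) and 35.7 (Hom) (logFC -1.10, SE 0.181, edgeR FDR = 0.00133), and *CNOT8* was the exception, 0.38 higher (FDR = 0.0437). Against WT, *CNOT8* had a logFC of 0.60 in Het (FDR = 0.0119) and 0.16 in Hom (FDR = 0.489). The LSm genes, whose products form the ring that activates decapping, were higher: *lsm7* rose from a WT mean of 9.43 CPM to means of 25.3 (Het) and 20.8 (Hom) (logFC 1.28, SE 0.170, FDR = 0.000586), and *lsm1*, *LSM3*, *LSM5* and *LSM6* rose by 0.93, 0.94, 0.95 and 0.74. Against WT, *LSM3* had a logFC of 1.29 in Het (FDR = 0.00555) and 0.60 in Hom (FDR = 0.141). *LSM2* had a logFC of 1.00 but was measured at 1.27 CPM in WT and did not pass (FDR = 0.0737), and *LSM4*, at 0.22, did not pass either. In the quasi-likelihood test used here, *lsm7* and *cnot4a* met the study's criteria for differential expression, 1 higher and 1 lower of the 41 genes. Of all 16021 tested genes 406 met them in either direction. Without Het 84, 10 genes were lower and 9 higher, beside 19.0% lower and 17.7% higher among all tested genes.

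Of 15 genes of the SPEN family, its corepressors and the RBPJ branch of Notch signalling, 3 fell and 1 rose (median logFC -0.078). The share that fell was close to that of all tested genes, of which 17.4% were lower and 16.8% higher. Beside the *SPEN* gene on chromosome 22, *NCOR1* fell from a WT mean of 363 CPM to means of 261 (Het) and 282 (Hom), with a logFC of -0.42 (SE 0.107, edgeR FDR = 0.0104). *hdac3*, the deacetylase of the same corepressor complex, rose by 0.43 (SE 0.106, FDR = 0.00876). No *RBPJ* or *NOTCH* gene of the list passed, and none of the 15 was listed as a Notch target gene. Without Het 84, 4 were lower and 2 higher, beside 19.0% lower and 17.7% higher among all tested genes.

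The writers and readers of N6-methyladenosine in mRNA were listed because RBM15 proteins of the SPEN family guide the methyltransferase. Of 12 genes 4 fell and none rose (median logFC -0.20, 33.3% lower), beside 17.4% lower and 16.8% higher among all tested genes. *ZC3H13*, a scaffold of the writer complex, fell from a WT mean of 228 CPM to means of 132 (Het) and 137 (Hom) (logFC -0.76, SE 0.121, edgeR FDR = 0.00118), the nuclear reader *ythdc1* by 0.65 (FDR = 0.00253), and *YTHDF3* and *VIRMA* by 0.37 and 0.32. The catalytic *METTL3* and its partner *METTL14* had logFC of 0.061 and 0.13, and neither passed (FDR = 0.790 and 0.467).

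**Figure D4:**
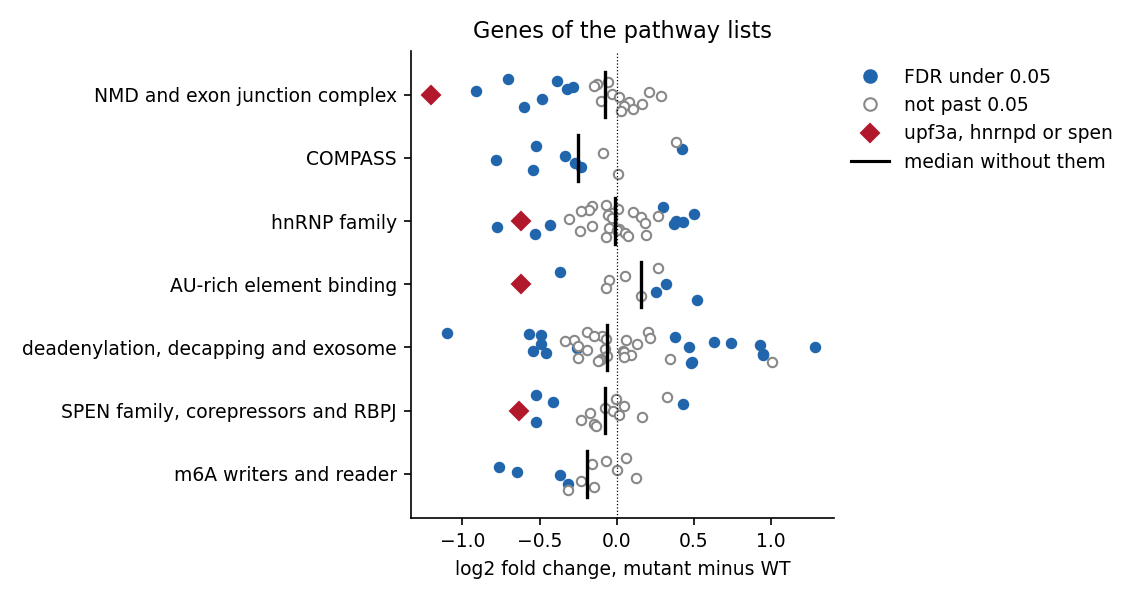
Log2 fold change, mutant minus WT, of each tested gene of the 7 lists: blue points passed an FDR of 0.05, open points did not, red diamonds are the 3 genes and black bars the medians without them. NMD genes that passed lie below 0 (7 of 20), while the list of deadenylation, decapping and the exosome spreads from -1.10 (*cnot4a*) to 1.28 (*lsm7*).

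Differences between mutant and WT fish went along with exonic length. The median logFC fell from 0.24 in genes of up to 1000 bp to 0.021 in those of over 2000 to 3000 bp and -0.12 in those over 10000 bp. *upf3a* and *hnrnpd* belong to the class of over 2000 to 3000 bp, in which 17.04% of 3744 genes were lower at an FDR under 0.05 and 18.6% higher. *spen* belongs to the longest class, in which 28.2% of 294 genes were lower and 3.74% higher. When log2 CPM was corrected for a spline of length in each fish, the logFC of *spen* for mutant minus WT moved from -0.64 to -0.42, while those of *upf3a* and *hnrnpd* were -1.27 and -0.65. *lsm7*, *lsm1* and *LSM6* are shorter than 1000 bp, and *pnrc1*, at 808 bp, fell against the median of its class. Of the COMPASS genes, *kmt2a* and *kmt2bb* belong to the longest class. *setd1a* and *SETD1B* belong to that of over 5000 to 10000 bp, in which 22.3% of genes were lower and 10.1% higher. The part of length in these differences beyond this correction was not tested.

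**Figure D5:**
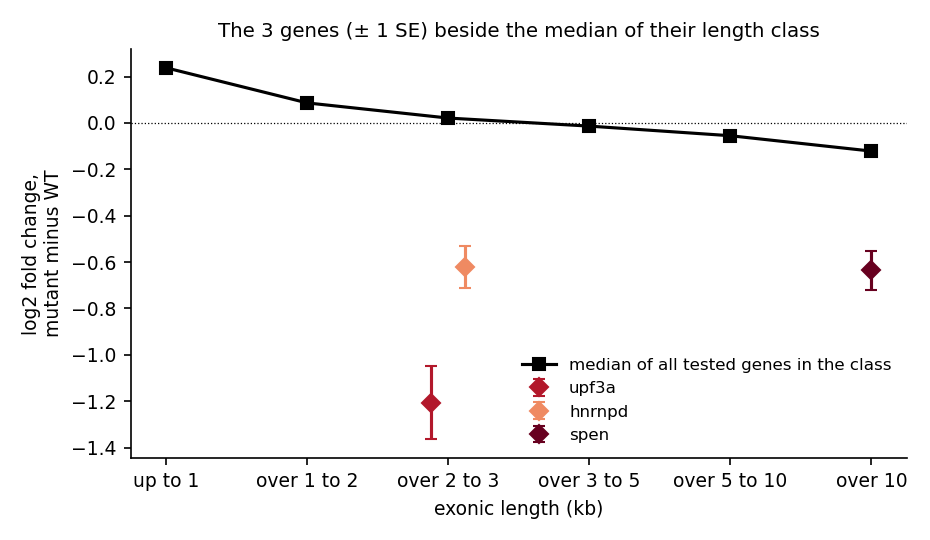
Log2 fold change, mutant minus WT, of the 3 genes (diamonds, bars ± 1 SE) and the median of all tested genes (squares) by class of exonic length in kb. The class medians run from 0.24 to -0.12, and the genes lie below the median of their class, at -1.21, -0.62 and -0.64.

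Genes next to the 3 on their chromosomes were compared with them. The neighbours of *upf3a*, *ASMTL* and *CDC16*, had logFC of 0.013 (edgeR FDR = 0.956) and 0.12 (FDR = 0.462), and *DCUN1D2* rose by 0.37 (FDR = 0.0161). Beside *hnrnpd*, *ENOPH1* was at 0.14 (FDR = 0.449), and *TMEM150C* and si:ch73-234b20.5 rose by 0.56 (FDR = 0.0252) and 1.17 (FDR = 0.00618). Beside *spen*, *epha2b* was at -0.0054 (FDR = 0.987) and *FAM131C* rose by 0.54 (FDR = 0.0130). None of these neighbours passed with a lower level in the mutants, beside 17.4% lower and 16.8% higher among all tested genes. Neighbours with few counts over all fish were not tested. They are *P2RY8* beside *upf3a* (46 counts), si:ch73-234b20.6 beside *hnrnpd* (2), and si:dkey-31b16.15 and *tmem82* beside *spen* (5 and 33). The tested *epha2b* and *FAM131C* lie 41554 and 92910 bp from *spen*.

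The genes most like each of the 3 in their pattern over the 12 fish were taken by Pearson's r of log2 CPM, which is largely set by the difference between WT and mutant fish and is given as a description. For *upf3a* they were *syt11b*, *PCM1*, *creb5b*, *ube2kb* and *map7d2a* (r = 0.991 to 0.984), and *hnrnpd* ranked 17 and *spen* 323. For *hnrnpd* they were *pnn*, *SP3*, *syt11b*, *mturn* and *fam184b* (r = 0.984 to 0.976). For *spen* they were *cacnb4a*, *setbp1*, zgc:66448, *ccnt1* and *ank2b* (r = 0.988 to 0.981). An r over 0.9 was found for 655, 589 and 630 genes, so likeness of this degree was common. With the genotype means taken out, r was 0.869 between *upf3a* and *hnrnpd*, 0.554 between *upf3a* and *spen* and 0.609 between *hnrnpd* and *spen*, over the same 12 fish. These values include the WT fish, whose order was the same for the 3 genes. Over the 8 mutant fish alone, with genotype means kept, r was 0.801, 0.170 and 0.378 for these pairs.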

How the data were processed

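The authors trimmed reads with cutadapt 1.14, aligned them to GRCz11 with STAR 2.7.0d and counted fragments per Ensembl gene with featureCounts 1.5.2 at a mapping quality of at least 10. The deposited values are whole-number counts without normalization, and another deposited column, of the unit other, gives exonic length per gene. The authors' later correction for GC content and length is not in the deposited counts, and GC content was not used here.

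Genotypes came from the labels, with 4 fish each and no library batch given. Genes with CPM above 1.5 in at least 4 fish were kept, and 2 mitochondrial rRNA genes (unnamed mitochondrial genes over 500 bp) were left out. Counts were scaled by TMM and fitted in 1 model with a mean for each genotype (edgeR 4.0.16 under R 4.3.3, quasi-likelihood test), with Benjamini-Hochberg adjustment (FDR) over 16021 genes, and p-values measure the spread between these fish. The edgeR fit was tested on simulated counts, with changes planted for mutant minus WT only. Log2 CPM for correlations used a prior count of 2, and exact tests used SciPy 1.17.1. Symbols came from the study's own gene list where given, otherwise from a table of names that matched 28988 identifiers.

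The genes and the lists were chosen with earlier results of these data known. Genes named are the 3 genes, their relatives, the 3 largest changes of each list, the 5 genes most alike and the chromosomal neighbours. Other list genes and *PSEN2* were named once their values were known, as was the *SPEN* gene on chromosome 22. A few genes that the rule names or the lists hold are not reported here. Promoter motifs were planned but not run. Alternatives were DESeq2 1.42.0, the likelihood-ratio test, upper-quartile scaling, other filters, other prior counts, fits of 2 genotypes, a length correction (quantreg 6.1, spline with 5 degrees of freedom) and leaving out each fish.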

Additional observations from a re-analysis of the deposited data

How the results depend on the processing

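The direction of *upf3a*, *hnrnpd* and *spen* was lower against WT and higher in Hom than in Het in each alternative run. The contrast with WT chose these genes, so their direction in it is a description only. The Het values may have had a part in that choice, which limits how Hom minus Het can be read. The length correction moved *spen* to -0.42 for mutant minus WT, -0.42 for Het and -0.42 for Hom. Over all genes, the number meeting the criteria was 406 for mutant minus WT in edgeR's quasi-likelihood test, with 1132 in DESeq2 and 966 in the likelihood-ratio test. For Het minus WT DESeq2 called 981, the likelihood-ratio test 870 and a fit of WT and Het fish alone 174. For Hom minus WT they called 525 and 454, and WT and Hom fish alone 17. For Hom minus Het both called 9. Leaving out 1 fish gave 161 (without WT 86) to 680 (without WT 88) genes for mutant minus WT, 137 (without WT 79) to 815 (without WT 88) for Het and 11 (without Hom 85) to 424 (without WT 88) for Hom, and 0 to 0 for Hom minus Het.

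Correlations within the mutants changed sign. With residuals from the genotype means, r of *upf3a* and *spen* was -0.0049 and r of *hnrnpd* and the rRNA share 0.018. Leaving out 1 fish gave r of -0.36 to 0.52 for *upf3a* and *spen*, and, with the rRNA share, -0.30 to 0.56 for *upf3a*, -0.46 to 0.55 for *hnrnpd* and -0.39 to 0.20 for *spen*, where the lowest value was each time the one without Het 84. For *upf3a* and *hnrnpd* it was 0.64 to 0.92 and for *hnrnpd* and *spen* 0.093 to 0.49. None passed adjustment (p from 0.056 up). The cause of these changes was not tested. The counts of list genes under other settings were chosen after seeing the data. No paired analysis was possible because no fish number is shared between genotypes. With 4 fish a genotype, the intervals for Hom minus Het allow a difference of up to 0.57 on the log2 scale in *upf3a*.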
